A study of Mus musculus with 18 samples.

Results

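Potassium channel genes encode the proteins that let potassium ions leave or enter a cell and so set its resting voltage and the shape of its electrical response. They were taken here as the gene symbols that begin with Kcn, go on with lower-case letters and end in a number, with Kcnj10 left out. Of 23420 symbols in the count files, 91 met this rule, and 66 of them had a mean of 20 or more reads per mouse over the 9 mice and were kept. The other 25 lay below that minimum, with Kcnk10 (15.1 reads) and Kcne4 (11.8) nearest under it and Kcnj4 (20.6), Kcnk13 (22.3) and Kcnq3 (22.6) nearest above it. All 66 genes kept also passed the filter on low counts of the test across all genes. The rule used the mean over all mice and no difference between groups, but a gene high in 1 group can pass it through that group. Kcnq3 had 4 to 22 reads in naive and vehicle mice and 33 to 49 in TD139 mice, and Kcnk9 9 to 28 and 39 to 59. Kcnk13 had 21 to 55 reads in vehicle mice and 11 to 23 in the others. The calls of Kcnq3 and Kcnk9 as higher with TD139 are therefore not independent of the rule.

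RNA was sequenced from retinas of wild-type BALB/cJ mice, an albino strain, aged 8 to 10 weeks. In the naive group, 3 mice had no light exposure and no treatment. In the vehicle group, 3 mice were exposed to 15000 lux of white light for 1 h and received DMSO, the solvent, by intraperitoneal injection on consecutive days from the day before the light. In the TD139 group, 3 mice had the same exposure and received TD139, a galectin-3 inhibitor, at 15 mg/kg in that solvent on the same days. Retinas were taken 4 days after the light. The naive mice differ from the vehicle mice in both light and injections, so these cannot be told apart in vehicle against naive. TD139 mice and vehicle mice differ by design in the compound alone. Their log2 fold changes also moved with transcript length, and their shares of reads outside genes differed, as given below. The compound and such differences between libraries cannot be told apart here. Vehicle against naive and TD139 against vehicle share the vehicle mice, and TD139 against naive shares its naive and TD139 mice with them.

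Each mouse had between 26171887 and 30201517 reads on genes, and its 2 runs were summed. Levels are given as CPM, counts scaled to library size by the TMM method, and levels of different genes are compared only as CPM per kb of the longest annotated transcript. Rod photoreceptors dominated the tissue: the summed level of 11 rod markers was 81520 to 94530 CPM in naive, 47770 to 66910 in vehicle and 66790 to 82850 in TD139 mice. The 12 markers of microglia and macrophages summed to 40.4 to 43.8 CPM in naive, 229 to 482 in vehicle and 28.4 to 139 in TD139 mice. Vehicle mouse 2 stood apart in 8 skeletal muscle markers, a list added after its counts had been seen: these summed to 1218 CPM in that mouse and to between 6.23 and 16.7 CPM in the other 8 mice. In bulk tissue, fewer cells of a type and less RNA per cell cannot be told apart.

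Voltage-gated channels (the Kv families, Kcna to Kcnd, Kcnh and Kcnq) are tetramers that open on depolarisation. Silent Kv subunits, such as those of Kcnv, Kcng, Kcns and Kcnf, make no channel alone and assemble with other Kv subunits. Inward rectifiers (Kcnj) and 2-pore channels (Kcnk) hold the resting voltage, and the calcium-activated BK and SK channels link it to calcium. In rods and cones, the silent subunit Kv8.2 from Kcnv2 is part of the inner segment channel that carries potassium out in darkness and balances the current through the light-sensitive channels of the outer segment. Loss of KCNV2 causes a cone dystrophy with supernormal rod responses in people.

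The selectivity filter, the short stretch that lets potassium pass and keeps sodium out, was used to see what the genes share in sequence. A motif of 5 codons (ACN, any codon, GGN, TAN or TTN, and GGN) was searched in frame on the coding strand of the longest coding sequence of each gene in GENCODE M21. It was found in 47 of the 56 pore-forming and silent members and in none of the 10 accessory members, against 1.26% of 21901 protein-coding genes. It occurred 2 times in 6 of the 7 Kcnk members, whose family is named for the pair of pore stretches in each subunit, and at most 1 time in any other member. The 9 pore-forming members without it were 5 of 6 Kcnh genes, all 3 Kcnn genes and Kcnj14, and no match says only that these letters are not there. The stretches of the silent subunit of photoreceptors and of the Kv1 member with the largest difference between light-exposed groups follow, with the motif in capitals.
Kcnv2 (GRCm38, chr19:27333648-27333677, plus strand): atctccACCGTGGGCTATGGAgacatgtac
Kcna3 (GRCm38, chr3:107037605-107037634, plus strand): atgacaACTGTTGGTTATGGTgatatgcac
Of the 30 bases, Kcnv2 and Kcna3 shared 21, of which 11 lay among the 15 bases in capitals. Both stretches were chosen because they carry the motif, which fixes some of these bases in advance, and no other pair was compared.

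Potassium channel reads in the retina were concentrated in a few genes. Per kb of transcript, members with the highest mean over all mice included Kcnab2 (108.5 CPM per kb), Kcnj14 (102.4), Kcnv2 (100.9) and Kcne2 (40.1). Kcnab2 encodes a cytoplasmic beta subunit of Kv1 channels, Kcnj14 the inward rectifier Kir2.4, and Kcne2 a small membrane subunit that modifies several Kv channels. In naive mice, Kcnj14 stood at 129.4 ± 37.5 CPM per kb (SD, n = 3), Kcnab2 at 110.8 ± 6.03 and Kcnv2 at 98.2 ± 11.8, and these levels lay within their spread of each other. Kcne2 followed at 43.1 ± 4.54 CPM per kb. In vehicle mice the order changed, with Kcnab2 first at 101.5 ± 6.11 CPM per kb, and with Kcnj14 at 65.7 ± 10.02 and Kcnv2 at 60.0 ± 13.7. In TD139 mice Kcnv2 had the highest mean, 144.5 ± 39.4 CPM per kb, within the spread of Kcnab2 at 113.0 ± 3.91 and Kcnj14 at 112.2 ± 27.9.

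In vehicle against naive, 4 of the 66 members passed an adjusted p of 0.05 in edgeR's quasi-likelihood test, 1 higher and 3 lower. That is 6.06% of the members, and 7.8% of all 15196 genes tested passed (4.91% higher and 2.89% lower). Among the genes that fell were Kcnj14 and the Kv4 subunit Kcnd1, and the gene that rose was Kcnh1, the voltage-gated channel Eag1. At an unadjusted p under 0.05 there were 12 members, 18.2% against 27.6% of all genes. The groups did not overlap for 12 members that were higher and 5 that were lower with vehicle, 25.8% of the members, against 33.3% of all genes. None of the members passed the study's cut-off of a log2 fold change of 2 as well, which 1.24% of all genes did. The median log2 fold change of the members was 0.158, with 48 of 66 above 0, and that of all genes -0.00175. Medians of the markers of several retinal cell types were above 0 too: the 8 amacrine markers had a median of 0.244 (0 passed, summed level 1015 to 1206 CPM in vehicle and 863.7 to 988.1 in naive mice), the 4 horizontal markers 0.216 (1 higher, 97.31 to 118.6 against 77.12 to 86.68 CPM) and the 6 Müller glia markers 0.766 (3 higher, 5296 to 5805 against 3940 to 4691 CPM). The median was 0.106 for 8 ganglion cell markers, 0.261 for 8 endothelial and pericyte markers, -0.027 for 8 bipolar markers and -0.227 for 8 cone markers, of which 0 passed. The part of these cell types in the members' median was not tested. Most fits that left out 1 mouse lost calls over all genes, which were 746 higher and 439 lower with all mice. They fell to 1 and 0 of 15447 without naive mouse 2, 62 and 29 of 15404 without naive mouse 1, and 65 and 19 of 15360 without vehicle mouse 3. Without TD139 mouse 1 they rose to 1167 and 815 of 15434. Calls of this comparison lost in these fits are therefore given with the range of their log2 fold changes.

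In TD139 against vehicle, 16 members passed higher and 2 lower. These are 24.2% and 3.03% of the members, and of all genes 17.2% passed higher and 16.2% lower, so that 33.4% passed in all against 27.3% of the members. The genes that rose came from 11 of the 13 subfamilies, and among them were the 3 that fell with vehicle. The genes that fell were the inward rectifier Kcnj4 and the silent subunit Kcng4. The groups did not overlap for 27 members that were higher with TD139 (40.9%, against 26.0% of all genes) and for 9 that were lower (13.6% against 25.4%), 54.5% of the members and 51.5% of all genes in all. At an unadjusted p under 0.05 there were 28 members, 42.4% against 46.4% of all genes. Only Kcna3 also passed the log2 fold change of 2, which 1.65% of all genes did. The median was 0.151 for the members and -0.0164 for all genes. It was -0.0204 for the amacrine, 0.27 for the horizontal, -0.343 for the Müller glia, -0.125 for the ganglion cell, 0.0668 for the bipolar, 0.103 for the cone and -0.212 for the endothelial and pericyte markers.

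In TD139 against naive, 6 members passed higher and 0 lower, against 2.72% and 2.38% of all genes and 5.1% in all. At an unadjusted p under 0.05 there were 25 members, 37.9% against 29.6% of all genes. The groups did not overlap for 26 members that were higher (39.4% against 15.3% of all genes) and for 2 that were lower (3.03% against 16.8%), 42.4% and 32.2% in all. DESeq2 called 17 members higher, and it called 1431 of 13438 genes higher where edgeR called 413 of 15196. The 6 genes were the Kv4 subunits Kcnd2 and Kcnd3, the Kv3 subunit Kcnc2, the Eag2 gene Kcnh5, the inward rectifier Kcnj6 and the Kv1 subunit Kcna1, the last named after its values were seen. Each lost its call in some of the fits that left out 1 mouse, and all 6 lost it when only naive and TD139 mice were fitted and with transcript length and GC content corrected for, fits that called 1 of 14787 and 0 of 15068 genes. With the correction the log2 fold changes were 0.94 for Kcnh5, 1.04 for Kcnj6 and 0.50 for Kcna1, against 1.01, 1.08 and 0.56 without it, and 0.49 for Kcnd3, 0.35 for Kcnd2 and 0.42 for Kcnc2, against 0.80, 0.62 and 0.66. None also passed the log2 fold change of 2, which 0.0263% of all genes did. The count of members was 0 without naive mouse 1, naive mouse 2, vehicle mouse 2, TD139 mouse 2 or TD139 mouse 3, where 0 of all genes passed as well. It was 3 without vehicle mouse 1 or vehicle mouse 3 (277 and 265 of all genes higher), 11 without TD139 mouse 1 (1041 of all genes) and 15 without naive mouse 3 (1523 of all genes). The median was 0.216 for the members and -0.00227 for all genes, beside 0.225 for the amacrine, 0.533 for the horizontal and 0.201 for the Müller glia markers. For the ganglion cell markers it was 0.00395, for the bipolar -0.059, for the cone -0.1 and for the endothelial and pericyte markers 0.175.

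**Figure D1:**
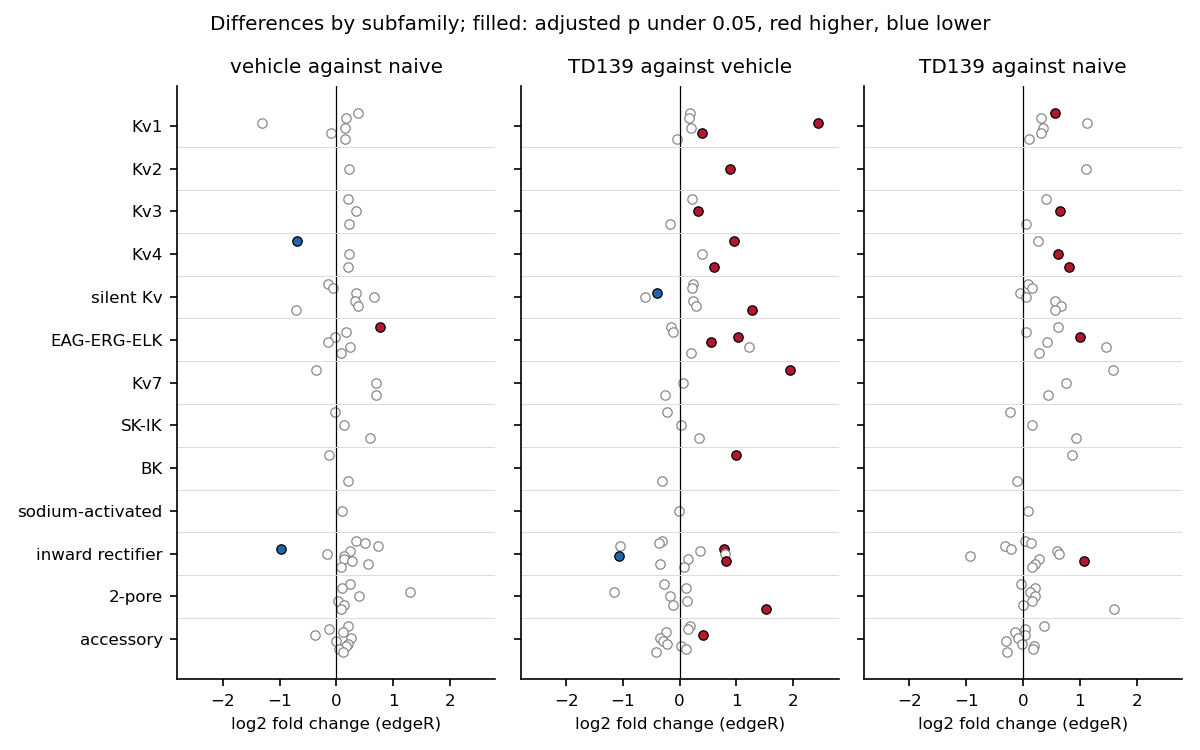
Each dot is 1 of the genes reported here, placed by its edgeR log2 fold change (horizontal) in its subfamily (rows), 1 panel for each of the 3 comparisons. Filled dots have an adjusted p under 0.05. In the first panel the filled dots on the left are Kcnd1 and Kcnj14, and in the second most filled dots lie on the right.

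Kcnv2 (ENSMUSG00000047298.3, chr19:27322588-27337179) stood at 448.1, 489.7 and 566.4 CPM in naive mice, at 339.3, 354.0 and 226.5 in vehicle mice and at 512.3, 899.5 and 802.3 in TD139 mice. All vehicle mice lay below all others. The log2 fold change in vehicle against naive, -0.71 ± 0.22, missed the threshold in edgeR (adjusted p 0.0751), and that in TD139 against vehicle, 1.27 ± 0.22, passed (adjusted p 0.0061) and did so whichever mouse was left out.

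The Kv2 gene Kcnb2 was at 1.11 to 1.91 CPM in naive, 1.28 to 2.19 in vehicle and 3.27 to 3.49 in TD139 mice. It rose by 0.88 ± 0.29 in TD139 against vehicle, but its transcript is the longest of the 66, and with length and GC content corrected for the value was 0.12 ± 0.26. The call was also lost without naive mouse 2, vehicle mouse 1, vehicle mouse 3 or any 1 of the TD139 mice (highest edgeR adjusted p 0.126). Scaling by library size alone and a replicate block lost it too. In the comparisons with vehicle mice, levels of rod markers moved with Kcnv2: 8 of 11 were lower in vehicle against naive and 5 of 11 higher in TD139 against vehicle, where 2.89% and 17.2% of all genes passed in these directions. In TD139 against naive neither passed: Kcnv2 had 0.56 ± 0.22 (edgeR adjusted p 0.128), or 0.36 ± 0.21 with the correction (adjusted p 0.442), and 0 of 11 rod markers passed in either direction, with a median of -0.18. The mean of their summed level was lowest in the vehicle group, but vehicle mouse 2 (66910 CPM) lay just above TD139 mouse 1 (66790 CPM), and the part of rod number in the values of Kcnv2 was not tested.

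**Figure D2:**
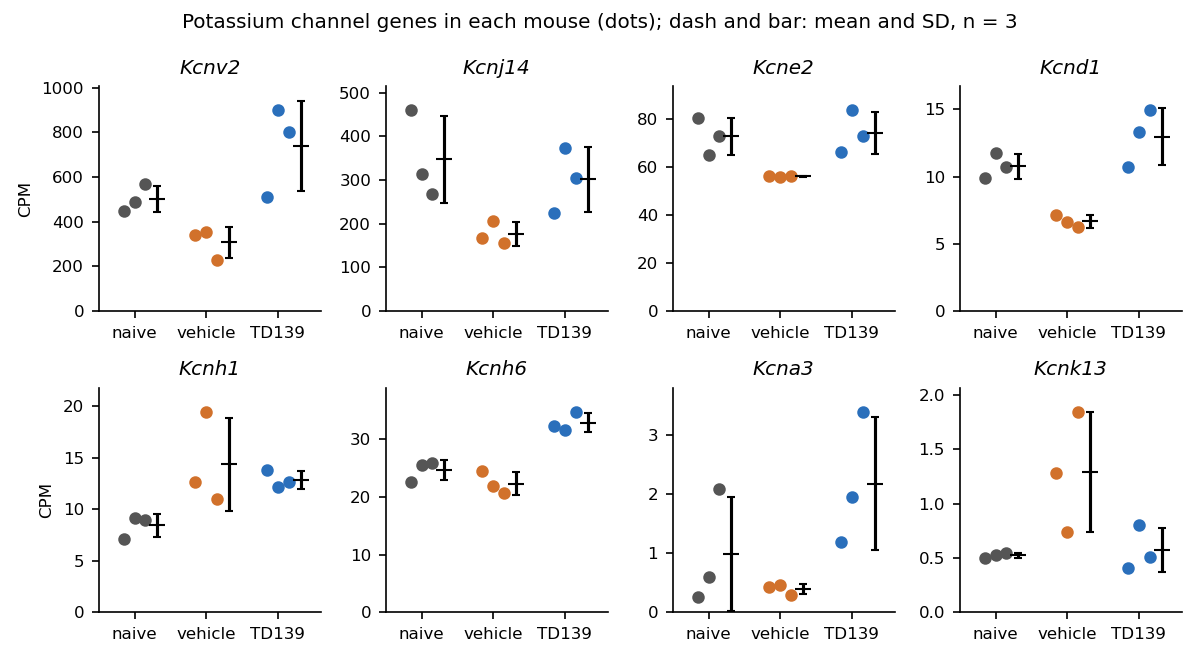
Levels (CPM, vertical, from 0) of 8 potassium channel genes in each of the 3 naive, 3 vehicle and 3 TD139 mice (dots), with the mean and SD of each group beside them. For Kcnv2, Kcnj14, Kcne2 and Kcnd1 the vehicle mice lie below all other mice, and for Kcnk13 they lie above all naive mice.

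Kcnj14 (ENSMUSG00000058743.6, chr7:45816460-45824782) was the inward rectifier with the highest level. It stood at 459.8, 313.4 and 267.4 CPM in naive mice, at 167.3, 206.4 and 154.9 in vehicle mice and at 224.3, 373.6 and 304.9 in TD139 mice. The vehicle mice lay below all others, and the naive mice were widely spread. It fell by 0.98 on the log2 scale in vehicle against naive (SE 0.23, edgeR adjusted p 0.0358) and rose by 0.77 ± 0.23 in TD139 against vehicle (adjusted p 0.029). The first call was lost without any 1 of the naive mice, vehicle mouse 1, vehicle mouse 3 or TD139 mouse 3, and the second without vehicle mouse 1, vehicle mouse 3, TD139 mouse 2 or TD139 mouse 3, with adjusted p values up to 0.119 and 0.118. Over the left-out fits the log2 fold changes ran from -1.13 to -0.71 and from 0.59 to 0.95. The first call was also lost with a replicate block.

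Kcnd1 (ENSMUSG00000009731.4, chrX:7822289-7838280), a Kv4 subunit of rapidly inactivating currents, was also lowest in the vehicle group. Its level was 9.87, 11.7 and 10.7 CPM in naive mice, 7.15, 6.61 and 6.22 in vehicle mice and 10.7, 13.3 and 14.9 in TD139 mice. All vehicle mice lay below all others. The log2 fold change was -0.69 ± 0.16 in vehicle against naive (edgeR adjusted p 0.0308) and 0.96 ± 0.16 in TD139 against vehicle (adjusted p 0.00568). The first was lost without any 1 naive or vehicle mouse (highest adjusted p 0.116), with log2 fold changes from -0.74 to -0.62 over the left-out fits, and the second held whichever mouse was left out.

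The other Kv4 genes did not fall with vehicle. Kcnd3 was at 56.8 to 67.3 CPM in naive, 62.8 to 87.6 in vehicle and 97.0 to 121.9 in TD139 mice. Only the TD139 mice stood apart, with log2 fold changes of 0.60 ± 0.14 against vehicle and 0.80 ± 0.14 against naive in edgeR (adjusted p 0.0103 and 0.0407). The first was lost without TD139 mouse 2 (adjusted p 0.0537). Kcnd2 was at 7.49 to 9.65, 9.61 to 10.9 and 13.2 to 14.3 CPM in the 3 groups, with 0.40 ± 0.15 against vehicle (adjusted p 0.0556) and 0.62 ± 0.15 against naive (adjusted p 0.0453). After the length and GC correction, Kcnd3 missed the threshold in both comparisons (adjusted p 0.0686 and 0.0864).

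The Kv1 subfamily, the delayed rectifiers and axonal channels of neurons, had 6 members kept of 8. Kcna3, a Kv1 channel also known from T cells and microglia, had few reads: 7, 16 and 57 in the naive mice, 12, 13 and 9 in the vehicle mice and 32, 56 and 86 in the TD139 mice. The TD139 mice lay above the vehicle mice, and the naive mice spanned both groups. Its log2 fold change in TD139 against vehicle, 2.44 ± 0.68 in edgeR (adjusted p 0.02), was the highest of the 66 and was lost without vehicle mouse 3, TD139 mouse 2 or TD139 mouse 3 (highest adjusted p 0.0817). The microglia and macrophage markers ran the other way in that comparison, with 9 of 12 lower and 0 higher.

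Kcna5 (Kv1.5) was at 77.5 to 86.6 CPM in naive, 74.3 to 85.4 in vehicle and 96.3 to 107.9 in TD139 mice, and rose by 0.40 ± 0.09 in TD139 against vehicle (edgeR adjusted p 0.0111). The TD139 mice lay above all others, and the call was lost without TD139 mouse 2 (adjusted p 0.0551). Kcna2 (Kv1.2), at 113.7 to 152.9 CPM over all mice, had 0.16 ± 0.09 in TD139 against vehicle and did not pass. With length and GC content corrected for, this long transcript had -0.39 ± 0.16 (edgeR adjusted p 0.0951), the opposite sign.

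Among the Kv3 genes, the channels of fast repolarisation, Kcnc2 was at 34.8 to 42.2 CPM in naive, 45.8 to 54.1 in vehicle and 57.1 to 63.6 in TD139 mice. The 3 groups did not overlap. In edgeR it passed in TD139 against vehicle (0.32 ± 0.11, adjusted p 0.0425) and against naive (0.66 ± 0.11, adjusted p 0.0407), and after the correction in neither (0.10 and 0.42, adjusted p 0.474 and 0.0938). The first call was lost without naive mouse 2, vehicle mouse 2, vehicle mouse 3 or any 1 of the TD139 mice (highest adjusted p 0.132). Scaling by library size alone and a replicate block lost it too. Kcnc1, with more reads, did not pass in any comparison.

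Of the Kcnh genes, the EAG, ERG and ELK channels, only Kcnh1, Kcnh5 and Kcnh6 passed in any comparison. Kcnh1 was at 7.11, 9.2 and 9.02 CPM in naive mice, at 12.6, 19.5 and 11.1 in vehicle mice and at 13.8, 12.1 and 12.7 in TD139 mice. All naive mice lay below all others, and vehicle mouse 2 was the highest. Its log2 fold change in vehicle against naive was 0.77 ± 0.21 with an edgeR adjusted p of 0.0477, which passed in 1 of the 9 fits that left out a mouse, the fit without TD139 mouse 1. Without vehicle mouse 2, which carried the muscle markers, it was 0.49, and over all left-out fits it ran from 0.49 to 0.93. The call was also lost with only the groups compared and with a replicate block.

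Kcnh6 (Erg2) was at 22.6, 25.5 and 25.8 CPM in naive mice, at 24.4, 21.8 and 20.7 in vehicle mice and at 32.3, 31.5 and 34.7 in TD139 mice. The TD139 mice lay above all others, while naive and vehicle mice overlapped. It rose by 0.56 ± 0.11 in TD139 against vehicle (edgeR adjusted p 0.00651) and passed whichever mouse was left out. Kcnh5 (Eag2) was at 2.84 to 4.18, 2.97 to 4.79 and 6.53 to 8.35 CPM in the 3 groups and rose by 1.03 ± 0.24 against vehicle (adjusted p 0.0112), a call lost without TD139 mouse 2 (adjusted p 0.0553) and held without each of the other mice. Kcnh7 (Erg3), with a transcript of 13321 bases, had 1.22 ± 0.44 in the same comparison and missed the threshold (adjusted p 0.0502). With the correction it had 0.49 ± 0.38 (adjusted p 0.362), and it shares 696 exon bases with Gca, a gene on the other strand with a mean of 476 reads.

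The silent subunits other than Kcnv2 showed no common direction. Kcng4, at 31.4, 30.6 and 32.3 CPM in naive mice, 34.2, 36.5 and 48.7 in vehicle mice and 32.9, 29.4 and 28.5 in TD139 mice, was highest in the vehicle group. It fell by 0.40 on the log2 scale in TD139 against vehicle (SE 0.13, edgeR adjusted p 0.0409). This call was lost without naive mouse 2, vehicle mouse 3, TD139 mouse 2 or TD139 mouse 3 (highest adjusted p 0.163), and also with only the groups compared and with a replicate block. The value was -0.23 without vehicle mouse 3, the highest of the group, and -0.22 ± 0.12 with length and GC content corrected for. Over the 6 silent subunits other than Kcnv2 the log2 fold changes ran from -0.60 to 0.30 in that comparison, with 0 higher and 1 lower.

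Of the Kv7 genes, which carry the M current that restrains firing, only Kcnq3 passed, in TD139 against vehicle. It had 4, 16 and 22 reads in naive mice, 11, 9 and 15 in vehicle mice and 44, 33 and 49 in TD139 mice. The TD139 mice lay above all others, with a log2 fold change of 1.94 ± 0.51 against vehicle (edgeR adjusted p 0.0155), lost without TD139 mouse 3 (adjusted p 0.0652). With length and GC content corrected for, Kcnq3 had 1.36 ± 0.47 and just missed the threshold (edgeR adjusted p 0.054). Kcnma1, the BK channel, was at 27.0 to 49.3 CPM in naive, 24.2 to 43.0 in vehicle and 52.2 to 78.2 in TD139 mice and rose by 0.99 ± 0.27 against vehicle (adjusted p 0.0218), lost without vehicle mouse 3, TD139 mouse 2 or TD139 mouse 3 (highest adjusted p 0.0857). With the correction it had 0.41 ± 0.18 (adjusted p 0.115). None of the 3 SK members passed in any comparison.

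Among the 11 inward rectifiers, Kcnj14 and Kcnj6 rose and Kcnj4 fell in TD139 against vehicle. Kcnj6, a G protein-gated channel, was at 2.11 to 3.59 CPM in naive, 2.39 to 3.93 in vehicle and 5.26 to 5.64 in TD139 mice, with log2 fold changes of 0.81 ± 0.27 against vehicle and 1.08 ± 0.27 against naive in edgeR (adjusted p 0.0383 and 0.0478). The TD139 mice lay above all others. The first call was lost without vehicle mouse 2, vehicle mouse 3 or any 1 of the TD139 mice (highest adjusted p 0.128). It was also lost with scaling by library size alone and with a replicate block (edgeR adjusted p 0.0602 with the block). Kcnj4, with 11 to 13 reads in TD139 mice and 19 to 32 in vehicle mice, had -1.07 ± 0.37 (adjusted p 0.045) and passed in 1 of the 9 fits that left out a mouse, the fit without vehicle mouse 1. With the correction it had -0.60 ± 0.39 (adjusted p 0.269), and the call was also lost in DESeq2, without a filter on low counts, with only the groups compared and with a replicate block. Kcnj9, the inward rectifier second to Kcnj14 in reads, stayed between 113.9 and 144.8 CPM in all mice, with log2 fold changes of at most 0.15.

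Inward rectifiers known from the pigment epithelium and from vessels did not pass. Kcnj13, the Kir7.1 channel of the pigment epithelium, had 67, 97 and 102 reads in naive mice, 113, 258 and 103 in vehicle mice and 104, 66 and 46 in TD139 mice, with vehicle mouse 2 far above the rest. The summed pigment epithelium markers were 949 to 1064 CPM in vehicle mice and 581 to 872 in naive mice, and 667 to 831 in TD139 mice. Most of these sums was Rlbp1 (448.3 to 721.4 CPM), which is also on the Müller glia list. The other markers tested, Rpe65, Ttr, Rgr, Lrat and Rdh5, overlapped between naive and vehicle mice, and each was highest in vehicle mouse 2. The log2 fold change of Kcnj13 was 0.74 ± 0.39 in vehicle against naive and -1.06 ± 0.40 in TD139 against vehicle (edgeR adjusted p 0.248 and 0.0589). Without vehicle mouse 2 these values were 0.17 and -0.50. It shares 623 exon bases with Gigyf2 on the other strand, and use of strand in counting is not given in the sources used here. The vascular genes Kcnj8 and Kcnj2 had log2 fold changes of 0.55 ± 0.27 and 0.24 ± 0.17 in vehicle against naive. Kcnj2 had 0.35 ± 0.17 in TD139 against vehicle and 0.59 ± 0.17 in TD139 against naive (edgeR adjusted p 0.118 and 0.0562). Its TD139 mice lay above all others, and neither gene passed in any comparison. Kcnj12, named after its values were seen, had 1034 reads in vehicle mouse 2 and 485 to 614 in the other 8 mice.

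Of the 7 2-pore genes, the leak channels, 1 passed, in TD139 against vehicle. Kcnk3 (Task1), the first of them in reads, was between 45.1 and 54.0 CPM in all mice, and it shares 229 exon bases with Gm9899, a gene on the other strand with a mean of 268 reads. Kcnk1 (Twik1), the second in reads, had 0.24 ± 0.12 in vehicle against naive and -0.27 ± 0.12 in TD139 against vehicle, with groups that did not overlap, and missed the threshold in both (edgeR adjusted p 0.22 and 0.102). Kcnk9 (Task3) had 9 to 28 reads in naive, 13 to 23 in vehicle and 39 to 59 in TD139 mice and rose by 1.52 ± 0.43 in TD139 against vehicle (edgeR adjusted p 0.0203), lost without vehicle mouse 2, vehicle mouse 3, TD139 mouse 2 or TD139 mouse 3 (highest adjusted p 0.077). Its transcript is 12300 bases long, and after the correction its adjusted p was 0.0739. Kcnk13 (Thik1), the leak channel of microglia, had 13, 14 and 15 reads in naive mice, 36, 21 and 55 in vehicle mice and 11, 23 and 13 in TD139 mice. All vehicle mice lay above all naive mice, and vehicle and TD139 mice overlapped. Its log2 fold changes were 1.29 ± 0.42 in vehicle against naive and -1.16 ± 0.42 in TD139 against vehicle, neither past the threshold in edgeR (adjusted p 0.0803 and 0.0524).

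Kcnk6 and Kcnn4, also known from microglia and macrophages, lay under the minimum. Kcnk6 had 4 to 7 reads in naive, 17 to 26 in vehicle and 4 to 15 in TD139 mice. Kcnn4 had 2 to 11, 5 to 13 and 1 to 3 reads in the same groups.

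Of the 10 accessory genes, only Kcne2 passed, in TD139 against vehicle. It was at 80.4, 65.1 and 73.1 CPM in naive mice, at 56.2, 55.8 and 56.3 in vehicle mice and at 66.1, 83.7 and 72.9 in TD139 mice. All vehicle mice lay below all others, close together. The log2 fold changes were -0.38 ± 0.11 in vehicle against naive (edgeR adjusted p 0.0588) and 0.40 ± 0.11 in TD139 against vehicle (adjusted p 0.0183), the second lost without vehicle mouse 3, TD139 mouse 2 or TD139 mouse 3 (highest adjusted p 0.0896). Kcnab2, at 376.3 to 454.3 CPM in all mice, had -0.13 ± 0.09 and 0.15 ± 0.09. Kcnip3, a calcium-binding subunit of Kv4 channels, and Kcnmb4, a neuronal BK subunit, did not pass in any comparison. The only member of the sodium-activated family kept, Kcnt1, had 0.00 ± 0.13 in TD139 against vehicle. A normal approximation from this SE gave -0.255 to 0.249, which is narrower than a 95% interval that allows for the few mice.

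Long transcripts are common among potassium channel genes, and transcript length moved with the comparisons that involve TD139 mice. Over the 66 members, Spearman's correlation of length with the log2 fold change was -0.02 in vehicle against naive, 0.49 in TD139 against vehicle and 0.58 in TD139 against naive. Over 15068 genes with a length it was -0.11, 0.49 and 0.59. These describe the same 9 libraries across genes, which are not independent. The share of reads outside genes was 19.1 to 19.9% in naive, 16.5 to 19.4% in vehicle and 21.3 to 22.8% in TD139 mice.

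Of the members, 33 had a transcript of 4 kb or longer and 33 a shorter one. In TD139 against vehicle, 10 of the 33 long members were higher (30.3%) and 0 lower, beside 34.5% and 5.18% of all long genes. Of the 33 short members, 6 were higher (18.2%) and 2 lower (6.06%), beside 6.54% and 23% of all short genes. The medians were 0.23 for long members and 0.26 for all long genes, and -0.13 and -0.18 for the short ones.

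A fit with a smooth correction for length and GC content in each library removed the relation, with Spearman's correlations of 0.05 over the members and -0.03 over all genes in TD139 against vehicle. There 13 members were higher and 0 lower, beside 2187 higher and 1252 lower of 15068 genes, and 10 of the 18 calls were among them. The calls lost were those of Kcnb2, Kcnq3, Kcnk9, Kcnma1, Kcnd3, Kcnc2, Kcnj4 and Kcng4, and those gained included Kcnab2 and Kcnk3. Kcnv2 rose by 1.10 ± 0.21 (edgeR adjusted p 0.0109), Kcnd1 by 0.91 ± 0.16, Kcnj14 by 1.14 ± 0.26 and Kcnh6 by 0.79 ± 0.12. Values that moved by over 1.5 times included those of Kcna5 (to 0.68 ± 0.11), Kcne2 (to 0.70 ± 0.12), Kcnd3 (to 0.30 ± 0.11), Kcnd2 (to 0.14 ± 0.13), Kcnk9 (to 0.99 ± 0.38) and Kcnj13 (to -0.67 ± 0.36). The median of the members was then 0.077 and that of all genes 0.0722. In vehicle against naive, the corrected fit kept all 4 calls and added Kcnc2 as higher and Kcnv2 and Kcne2 as lower, with Kcnv2 at -0.74 ± 0.21 (adjusted p 0.0362), while 1938 of 15068 genes were lower and 921 higher.

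**Figure D3:**
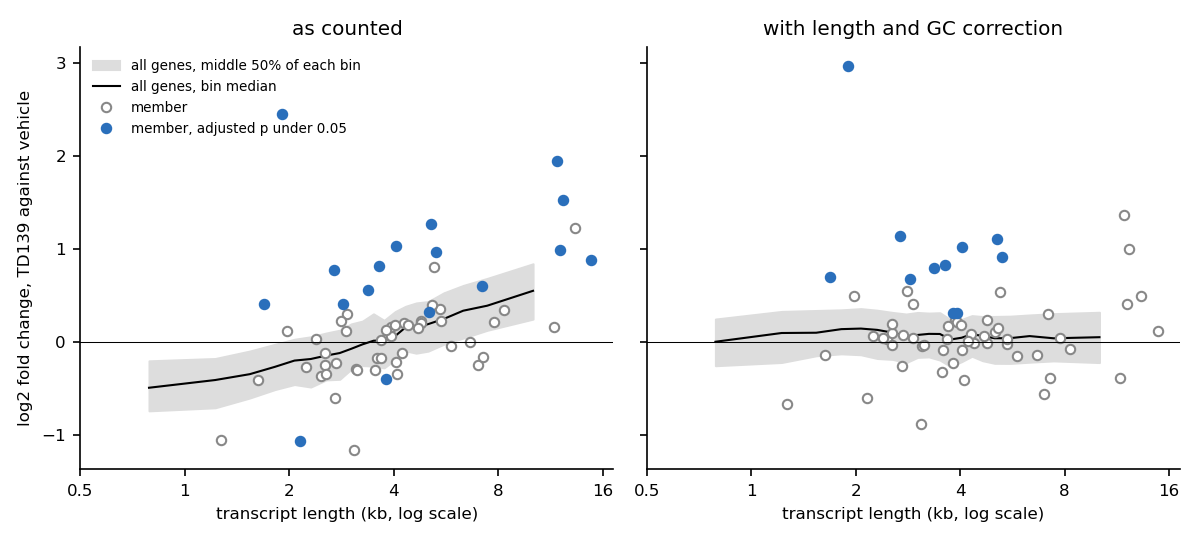
Log2 fold change in TD139 against vehicle (vertical) against transcript length (kb, log scale) for the members reported here (dots, filled where the adjusted p is under 0.05), as counted (left) and with the length and GC correction (right). The line and band give the median and the middle 50% of all genes in bins of equal gene number. On the left the line climbs with length and the members follow it, and on the right it is near 0.

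Genes that work beside the potassium channels were taken from a list of 32 ion transport genes, of which 30 were tested. In vehicle against naive 2 were higher and 5 lower, in TD139 against vehicle 12 were higher and 3 lower, and in TD139 against naive 3 were higher and 0 lower. Of all genes, 4.91% were higher and 2.89% lower in the first comparison, 17.2% and 16.2% in the second and 2.72% and 2.38% in the third. The median log2 fold changes were -0.01, 0.32 and 0.21. The 5 that fell with vehicle were photoreceptor genes: Cnga1 and Cngb1, the rod light-sensitive channel, Slc24a1, the rod sodium-calcium-potassium exchanger, and Cacna1f and Cacna2d4, the calcium channel of the photoreceptor synapse, with values from -0.51 to -0.67. All of these rose in TD139 against vehicle, from 0.40 to 0.86. Among the genes that rose with vehicle was the potassium-chloride cotransporter Slc12a4 (1.08 ± 0.22), which fell by 1.02 on the log2 scale in TD139 against vehicle. Both comparisons share the vehicle mice.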

How the data were processed

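Per the labels and the study's methods, stranded mRNA libraries from mouse retina were sequenced on 2 flow cells, and the authors counted reads per gene symbol on mm10 with BaseSpace RNA Express. The aligner version, annotation and use of strand are not given in the sources used here. The deposited files hold raw counts, 1 file per mouse and flow cell. The 2 runs were summed per mouse. Reads outside genes (16.5 to 22.8%) and ambiguous reads stayed out of library sizes.

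All 9 mice were fitted together in edgeR 4.0.16 (R 4.3.3) with TMM scaling, filterByExpr and the robust quasi-likelihood test. Benjamini-Hochberg adjustment ran over the 15196 genes tested, and each SE was obtained by dividing the absolute log2 fold change by the square root of F. The biological coefficient of variation was 0.2042. Groups came from the labels, which name 3 separate mice each. Intervals for single mice cover counting error only, and at this depth a count of 3, the floor for a gene at 0, is about 0.1 CPM. The code was tested on simulated counts.

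Lengths are those of the longest GENCODE M21 transcript (GRCm38, the same assembly as mm10), found for 98.442% of symbols. Coding sequences came from the same release. The correction fitted a spline of log length and of GC content (4 degrees of freedom each) to every library. Members, subfamilies, gene lists and tests were chosen with earlier results of these data known. The genes named are, by rule, the 2 members with the most reads in each subfamily, the 5 highest and 5 lowest called members of each comparison, the 5 highest per kb, the 3 longest and 3 shortest, and 10 with known places in the retina. A few of these genes are counted among the members but not reported here. Alternatives were RLE scaling, library size alone, DESeq2 1.42.0, no filter on low counts, only the groups compared, a replicate block, the correction, and leaving out each mouse. Markers of cone, bipolar, horizontal, amacrine, ganglion and vascular cells and of Müller glia were summed too.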

Additional observations from a re-analysis of the deposited data

How the results depend on the processing

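The medians of the members stayed above 0 in all 3 comparisons under all 7 alternatives and whichever mouse was left out, but counts of calls moved. The median of all genes moved with the setting too. With the correction in TD139 against vehicle it was 0.0722, close to the 0.077 of the members. In vehicle against naive (1 member higher, 3 lower, median 0.158), library size alone gave 2 higher and a median of 0.253, beside 893 of 15196 genes higher, DESeq2 2 higher and 5 lower, beside 1335 and 1041 of 15917, only the groups compared 0 higher, beside 940 of 15023, and the length and GC correction 2 higher, 5 lower and a median of 0.081, beside 921 and 1938 of 15068 and a median of -0.0996. The fit as reported called 746 genes higher and 439 lower. In TD139 against vehicle (16 higher, 2 lower, median 0.151), library size alone gave 7 lower and a median of 0.064, the fit without a filter on low counts 1 lower (2266 of 19011 genes), only the groups compared 1 lower (2439 of 15008), and the correction 0 lower (1252 of 15068) and a median of 0.077. In TD139 against naive (6 higher), DESeq2 gave 17 higher (1431 of 13438 genes), and only the groups compared and the correction 0 (1 and 0 of all genes). Library size alone moved the median of all genes to 0.0941, -0.102 and 0.00717 in the 3 comparisons, and split all calls in TD139 against vehicle into 1942 higher and 3040 lower in place of 2617 and 2455.

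With a replicate block, 0 members were higher in vehicle against naive (2 lower), where 559 of 15196 genes were higher and 341 lower, 1 lower in TD139 against vehicle (13 higher), where 2436 were higher and 2336 lower, and 0 higher in TD139 against naive, where 0 of all genes passed. The numbers did not pair the mice: deviations of same-numbered mice correlated between -0.259 and 0.282.

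Leaving out 1 mouse gave 0 to 1 members higher and 0 to 5 lower in vehicle against naive, with a median of 0.116 to 0.202, while calls over all genes fell to as few as 1 higher and 0 lower. It gave 5 to 19 higher and 0 to 3 lower in TD139 against vehicle, with a median of 0.086 to 0.182, the lowest median without vehicle mouse 2 (13 higher, 2 lower, beside 1910 and 1844 of all genes) and the fewest higher without TD139 mouse 2 (5, beside 867 of all genes), TD139 mouse 3 (7, beside 1050) and vehicle mouse 3 (8, beside 1240). In TD139 against naive it gave 0 to 15 higher, 0 lower and a median of 0.186 to 0.283, with 0 to 1523 of all genes higher. In TD139 against vehicle, 4 of the 18 calls passed in all 9 of these fits, Kcnv2, Kcnd1 and Kcnh6 among them. Of the 4 calls in vehicle against naive, 0 did. Over the genes named, 152 values lost their call in an alternative and 54 gained one. Another 68 changed sign without a call, and 0 changed sign with a call. Only the 4, 18 and 6 calls of the 3 comparisons could lose a call, so the 152 losses are not a share of all 2016 values. Counting error is largest for the members with the fewest reads, such as Kcnj4, Kcnk13 and Kcnq3 with means of 20.6 to 22.6 per mouse.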
